A study of Homo sapiens with 3 samples.

Results

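HepG2 is an established human line grown from a liver tumour and widely used in place of hepatocytes. The array described here held RNA of HepG2 cells harvested 72 h after transfection with 10 nM of a negative control siRNA, and it is 1 of the 3 arrays of the series. The other 2 arrays, of cells given siRNA against villin or PTK7, were not used, and no array was compared with another. The cells were grown in minimum essential medium with fetal bovine serum, and the labels do not say how many cultures gave the RNA. The cells had met transfection reagent and an siRNA, so the values are those of control-transfected cells and not of untouched HepG2. The authors' deposited intensity was used. Of the 24460 gene probes of the array, 20236 carried a gene symbol, which gave 17559 genes. Ranks and percentiles of genes are among these 17559 and leave out the probes with no gene symbol.

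Hepatocytes secrete most plasma proteins, among them albumin, the apolipoproteins, and the coagulation and complement factors, and they carry out the urea cycle, gluconeogenesis and the oxidation and conjugation of drugs and bile acids. The fetal liver makes alpha-fetoprotein (AFP) and other proteins that the adult liver has largely switched off, and liver tumours often make them again. Liver-derived lines are known to keep the secretory programme better than the drug-metabolising one.

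The marker genes given for the line were all bright. ALB, encoding albumin, had a deposited intensity of 14421 units and ranked 42 of 17559 genes (percentile 99.8). AFP had 7475 units and ranked 100 (percentile 99.4). APOA1, the main apolipoprotein of high-density lipoprotein, had 1754 units and ranked 449 (percentile 97.4). A change by the spot-to-spot SD of the more variable positive control (0.241 in log2) would move ALB between percentiles 99.7 and 99.8. AFP would move between 99.3 and 99.5, and APOA1 between 97.0 and 97.9. These ranges leave out differences between probes of a gene and between ways of processing. With the scanner's background column subtracted in place of the blank mean, APOA1 was at 90.99. The marker genes were named for this line beforehand, so their brightness describes the array and is no test of the label.

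The promoters of 4 genes are shown because the genes are the liver markers and the contrasting cases of the ranking. They were taken from RefSeq on build GRCh38.p14 and run from 250 bases before to 50 bases after the gene start, 5′ to 3′ on the strand of the gene. Capitals mark a TATA motif (TATAAA) and a homeodomain motif (GTTAAT), each on either strand, and every CG. The homeodomain motif is part of the site of a factor family of hepatocytes. ALB (chr4:73404037-73404336, plus strand) and AFP (chr4:73435971-73436270, plus strand) were bright, and both windows are poor in CG. CYP3A4 (chr7:99784135-99784434, minus strand), the main drug-oxidising P450 of adult liver, was dim. ENO1 (chr1:8878637-8878936, minus strand), the enolase of glycolysis, was bright and has a window rich in CG.
ALB: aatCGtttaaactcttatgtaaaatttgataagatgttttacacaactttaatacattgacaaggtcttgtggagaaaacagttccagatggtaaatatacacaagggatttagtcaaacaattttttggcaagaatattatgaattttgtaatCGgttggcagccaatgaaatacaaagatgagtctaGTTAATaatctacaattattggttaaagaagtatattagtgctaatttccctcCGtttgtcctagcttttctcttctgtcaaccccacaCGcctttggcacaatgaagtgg
AFP: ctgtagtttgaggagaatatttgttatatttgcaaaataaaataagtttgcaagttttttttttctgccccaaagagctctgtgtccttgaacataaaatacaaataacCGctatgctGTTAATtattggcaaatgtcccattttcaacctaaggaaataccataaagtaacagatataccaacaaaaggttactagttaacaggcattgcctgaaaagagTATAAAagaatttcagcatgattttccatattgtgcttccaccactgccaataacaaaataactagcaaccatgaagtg
CYP3A4: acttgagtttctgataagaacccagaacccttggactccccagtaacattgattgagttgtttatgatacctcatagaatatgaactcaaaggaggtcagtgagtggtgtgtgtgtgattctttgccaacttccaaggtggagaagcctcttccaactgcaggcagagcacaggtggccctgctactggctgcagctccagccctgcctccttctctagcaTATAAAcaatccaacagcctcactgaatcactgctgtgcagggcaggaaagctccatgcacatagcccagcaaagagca
ENO1: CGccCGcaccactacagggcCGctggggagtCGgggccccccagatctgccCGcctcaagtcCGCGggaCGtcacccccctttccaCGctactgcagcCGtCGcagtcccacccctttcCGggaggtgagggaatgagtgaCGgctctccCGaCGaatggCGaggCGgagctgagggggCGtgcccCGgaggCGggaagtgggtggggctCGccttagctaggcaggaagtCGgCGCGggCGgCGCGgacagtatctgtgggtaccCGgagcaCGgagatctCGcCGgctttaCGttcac
The ALB window holds 4 CG and the homeodomain motif at position -61, where the first base of the gene is 0. The AFP window holds 1 CG, the homeodomain motif at position -132 and the TATA motif at position -29. The CYP3A4 window holds 0 CG and the TATA motif, also at position -29, and the gene had 4 units. The ENO1 window holds 32 CG and neither of the other motifs, and the gene had 25300 units.

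The intensities of this array have a floor and a wide spread, which set what "bright" and "dim" can mean. The authors' table gives no value to probes that were not above background, and the probes with a value have a median of 25 units. On the array, 90.3% of probes and 92% of genes had a value. This share is not a share of expressed genes, since 43 of 96 negative control spots (44.8%) also exceeded the detection level, as did 40 of 116 spots labelled as holding no probe. The brightest negative control spot reached 9.06 units, the brightest blank spot 10.95 and the brightest spot labelled as holding no probe 12.1 units. The SD of the trimmed blank spots was 0.615 units. The 24 spots of each positive control varied with a coefficient of variation of 8.73% and 15.4%. There is no replicate array and no test was run, and 1 array sets the precision that any value here can have.

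A limit from genes of the array itself was used beside the negative controls. Olfactory receptors are made in the nasal epithelium and are hardly used elsewhere. Of 356 olfactory receptor genes, 77 had no value, and the family had a median of 4 units and a 95th percentile of 44 units. OR1J1 stood out at 872 units, followed by OR2T3 at 345 units. The 62 keratin-associated protein genes, which encode proteins of hair, were brighter, with a median of 14 units and KRTAP10-10 at 816, KRTAP4-8 at 342 and KRTAP12-3 at 320 units. A gene is called above the limit here if it exceeded 44 units, and 40.7% of all genes did so. Every count of list members above the limit in what follows is to be read beside that share. Of all genes, 67.6% exceeded the brightest negative control spot.

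**Figure D1:**
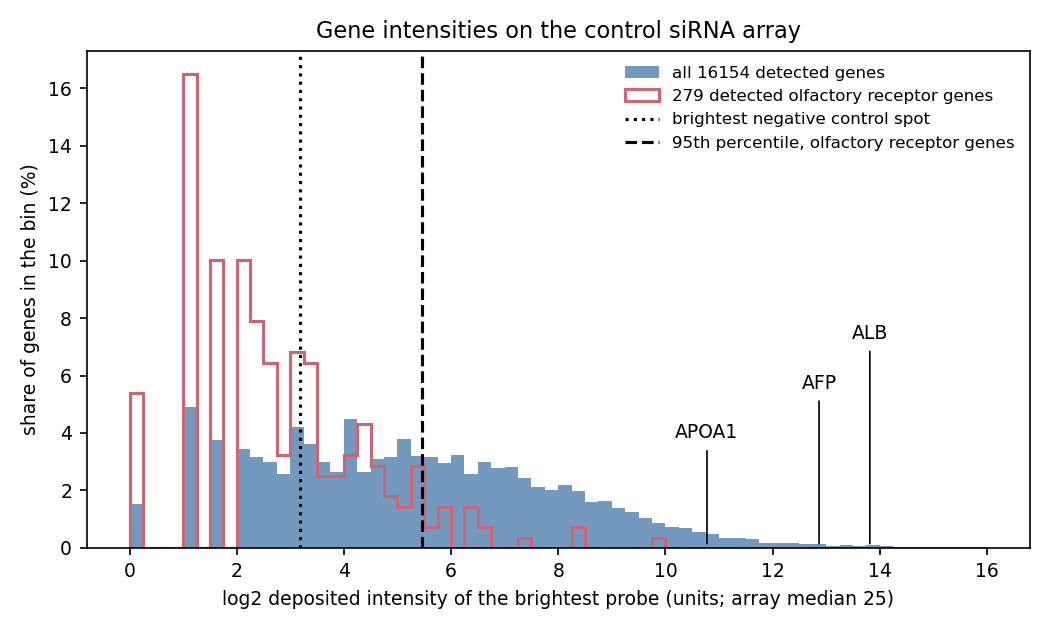
Distribution of log2 deposited intensity (units, brightest probe of each gene) on the control siRNA array, as the share of genes per bin, for the 16154 genes with a value (filled) and the 279 olfactory receptor genes with a value (outline). The dotted line is the brightest negative control spot at 9.06 units and the dashed line the limit at 44 units; APOA1, AFP and ALB lie far to the right of both.

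A rank orders probe signals and not transcript numbers, because each probe binds its own target with its own strength. The size of this effect can be read from genes with several probes. Of 2074 genes with 2 or more probes that had a value, 681 (32.8%) had all of them within 2-fold, and 472 (22.8%) had probes more than 10-fold apart. The median ratio of brightest to dimmest probe was 3.37. Across 1977 genes with a pair of probes the log2 intensities of the first and second probe correlated with r = 0.485, where both probes share the array and the sample. The widest gaps among bright genes were those of KLRC3 (7880 and 1 units), the polyubiquitin gene UBB (18807 and 7 units), the splicing factor gene SNRPD2 (5407 and 3 units), IER3 (3970 and 5 units) and BCAR1 (1524 and 2 units). The probes of ALB, in contrast, had 14421 and 13441 units. In what follows the value of a gene is that of its brightest probe, so "dim" means that no probe of the gene was bright.

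**Figure D2:**
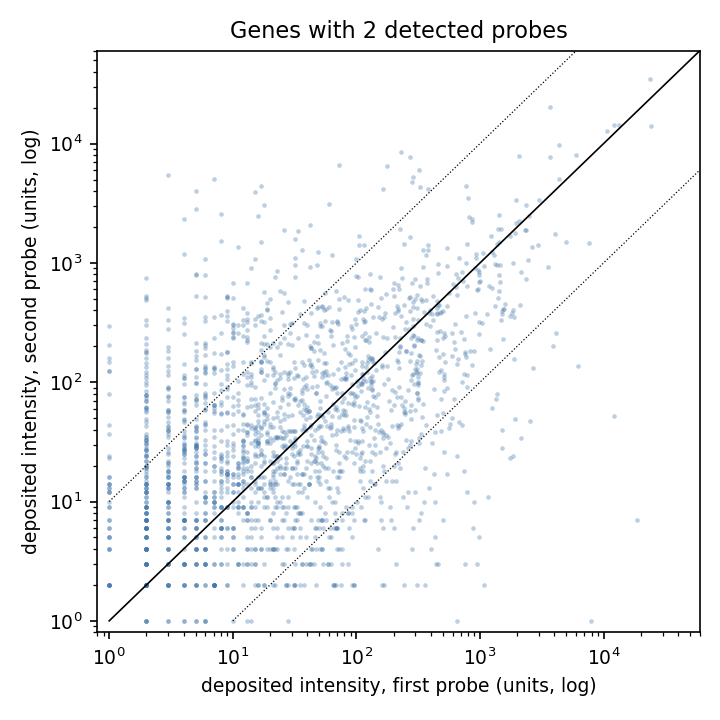
Deposited intensity of the first against the second probe (units, log axes) of the 1977 genes with exactly 2 probes that both had a value. The solid line marks equal values and the dotted lines a 10-fold difference; many genes lie outside the dotted lines.

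Probe sets also differed. Probes whose ID starts with H200 had a median of 47.3 units above blank, those with H300 21.6 units, those with AHsV 8.99 units and those with opHsV 14.7 units. H200 probes represented 34.3% of all genes, 44.8% of the members of the 4 secreted protein lists, 32.4% of the 5 lists of metabolism and transport and 43.5% of the 13 lists of other tissues. They represented only 5.9% of the olfactory receptor genes that set the limit, and the H200 median lies above the limit of 44 units. The limit is therefore not neutral between probe sets, and H200 probes pass it more easily. Ranked among probes of its own ID prefix, the brightest ALB probe lay at percentile 99.89 and the AFP probe at 99.63. Gene choice and probe design cannot be told apart in these sets. Block medians on the slide ran from 12.3 to 25.1 units over 24 blocks.

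The top of the ranking of named genes held the machinery of protein synthesis and iron storage. Of the 245 probes in the top percent of all probes, 84 had no gene name and are not in this ranking. FTL, the ferritin light chain, was the brightest gene at 49883 units, and the heavy chain gene FTH1 had 29040 units. Of the 25 brightest genes, 13 encode cytosolic ribosomal proteins, led by RPS18 (34600 units), RPS21 (32059 units), RPLP1 (31436 units), RPS15A (29475 units), RPL37A (26454 units) and RPS29 (26402 units). The rest were RPL31, RPS16, RPS25, RPS2, RPL30, RPL3 and RPL27, between 24283 and 19875 units. Another 3 carry the names of ribosomal pseudogenes, RPS16P10 (28460 units), RPS15P5 (18810 units) and RPL6P27 (18313 units). They are near-identical copies of RPS16, RPS15 and RPL6, and the probe sequences were not used here, so it was not tested which of the copies gave the signal.

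APOA2, the second apolipoprotein of high-density lipoprotein, ranked 5 at 30615 units and was the only member of the secreted protein lists among the 25 brightest genes. The rest of the 25 were the cytoskeletal actin ACTG1 (26017 units), ENO1 (25300 units), the nucleolar protein NPM1 (23378 units), UBB (18807 units), TPT1 (18692 units) and PTMA (18498 units). The 25 brightest genes held 13.6% of the summed intensity of all genes, and the 176 genes of the top percent held 41.5%.

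Of 24 analysed members of the ribosomal protein list, 22 lay in the top percent of genes, where 1 in 100 genes lies by definition. The list does not hold every ribosomal protein gene of the array. The dimmest of the 22 was RPL13 at 5924 units. The exceptions within the list were RPL32 at 30 and RPS19 at 8 units. Both are parts of the ribosome of every cell, and each had 1 probe. Outside the list, RPL15 had 1246 and 614 units and RPL27A 57 and 15 units on their probes, also below the top percent. EEF1A1, the translation elongation factor, had 243 units and the glycolytic enzyme PGK1 270 units, although both are known as strongly expressed in nearly all cells. A low value of 1 probe is therefore no measure that the gene was silent. All 12 analysed reference genes exceeded the limit, from TBP at 162, SDHA at 185 and GUSB at 400 units to PPIA at 6545, TUBA1B at 10006, GAPDH at 12173 and ACTB at 17225 units. The second probe of GAPDH had 52 units and that of PPIA 177 units.

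Genes of the secreted proteins of hepatocytes were mostly bright. Of 87 analysed members of the 4 secreted protein lists, 56 (64.4%) exceeded the limit, against 40.7% of all genes, and 28 (32.2%) lay in the top 10% of genes. Their median percentile was 79.8, and 10 members lay in the top percent. Of the 87 members, 5 had no value, as did 1405 of all 17559 genes.

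Among plasma carriers and acute phase proteins 19 of 33 exceeded the limit. The iron carrier transferrin (TF) had 17375 units, ALB 14421, the retinol carrier RBP4 8022, the protease inhibitor SERPINA1 5660 and the inter-alpha-inhibitor chain ITIH2 5477 units. The second probe of RBP4 had 6037 units. ORM2, an acute phase carrier, had 5056 units, the antichymotrypsin gene SERPINA3 4461, the iron hormone hepcidin (HAMP) 4169 and the angiotensin precursor AGT 3267 units. ORM2 shares most of its sequence with another gene of its family, and the specificity of its probe was not tested. The transthyretin gene TTR had 503 units, and the haptoglobin gene HP 188 units.

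Other acute phase genes were dim. CRP had 5 units, SAA1 7 and SAA2 10 units, and SAA1 and SAA2 are near-identical copies. All 3 are known to be induced in hepatocytes by inflammatory cytokines. Ceruloplasmin (CP) had 4 and kininogen (KNG1) 2 units, and ITIH1 and ITIH4 had no value. The haem carrier HPX had 33 units and the sex hormone carrier SHBG 9 units.

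Of 19 apolipoproteins and lipoprotein assembly genes, 15 exceeded the limit and 8 lay in the top 10%. After APOA2 came APOH at 12564, APOE at 5951, APOC1 at 3828 and APOB, the structural protein of very low density lipoprotein, at 3574 units. APOC2 had 2754, APOA1 1754 and APOC3 658 units. The second probe of APOE had only 319 units. The lipid loading protein MTTP had 92 units and the cholesterol esterifying enzyme LCAT 97 units. APOF, at 32 units, the apolipoprotein(a) gene LPA, at 15 units, and the lipid transfer protein gene CETP, at 4 units, were the dimmest.

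Coagulation factors exceeded the limit in 14 of 19 cases, but none reached the top percent. Prothrombin (F2) had 2084 units, and the fibrinogen chains FGA, FGG and FGB had 953, 735 and 234 units. The anticoagulant proteins PROS1 and PROC had 559 and 333 units, and antithrombin (SERPINC1) 166 units. F13B had 11, F11 13 and plasminogen (PLG) 28 units, and F9 had no value. Of 16 complement genes 8 (50%) exceeded the limit, against 40.7% of all genes. They were led by C3 at 3417 units, whose other probes had 2973 and 1199 units. C2 had 1142, CFB 653, C5 329 and C8B 220 units. The lectin pathway protease MASP1 had 3 units, the lectin MBL2 6 and C8A 6 units, and C6 and C9, parts of the membrane attack complex, had no value.

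**Figure D3:**
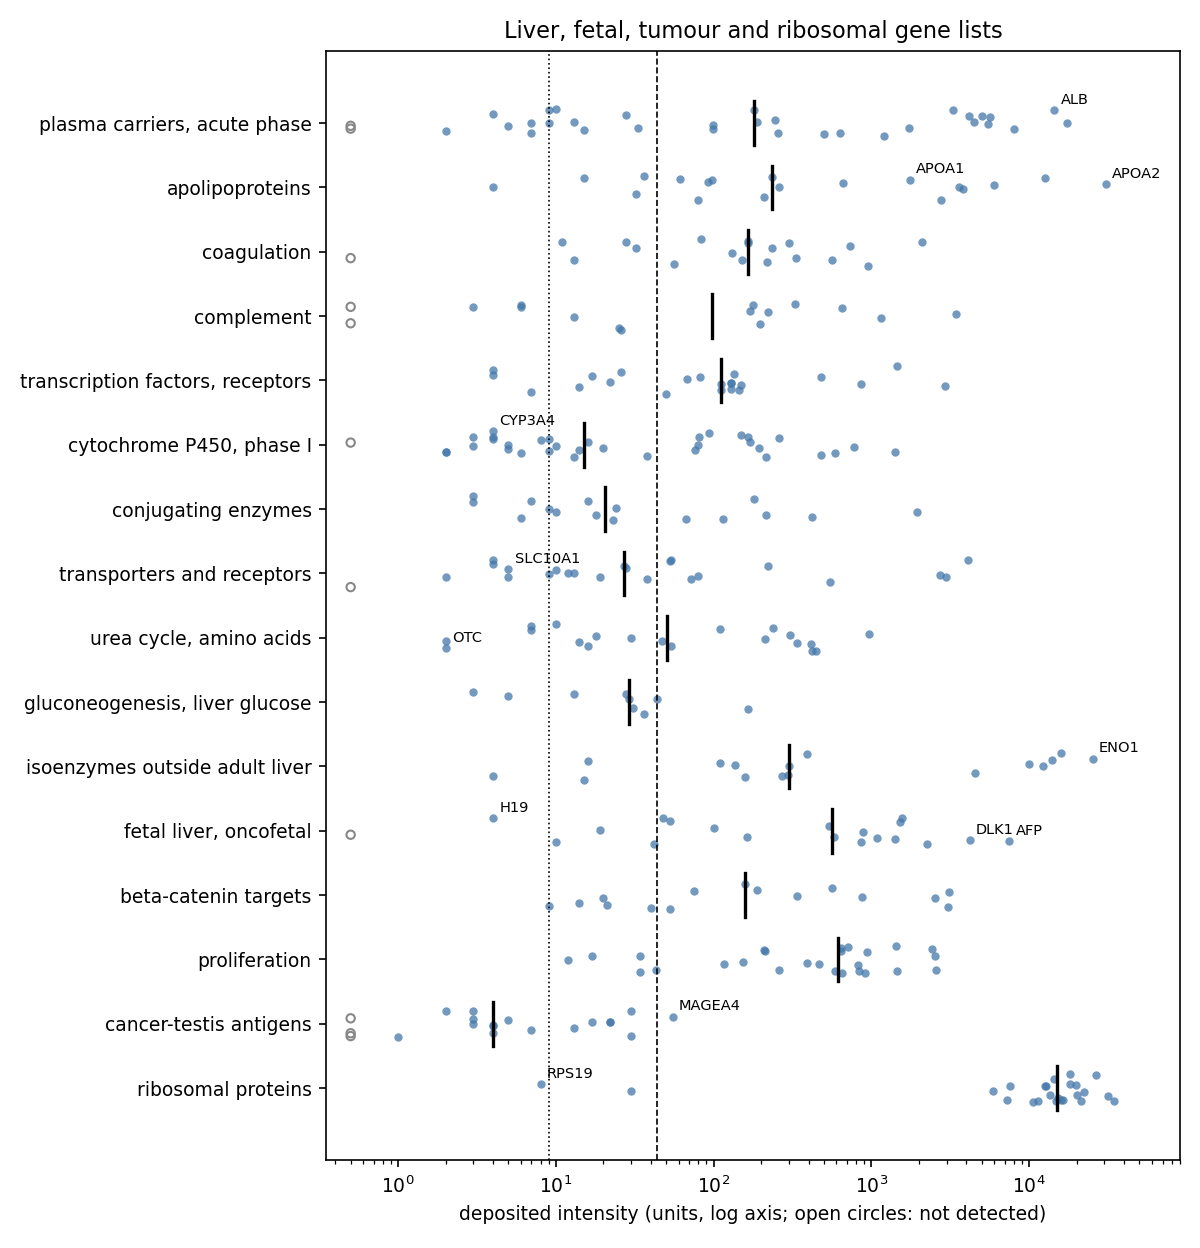
Deposited intensity (units, log axis) of each analysed member of 16 lists of liver, fetal, tumour and ribosomal genes. Points are genes, open circles at the left are genes with no value, bars are list medians, the dotted line is the brightest negative control spot (9.06 units) and the dashed line the limit (44 units); ribosomal proteins, with a list median of 14994.5 units, sit at the far right except for RPL32 and RPS19.

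The promoters of the coagulation and complement genes were poor in CG and often held GTTAAT. Promoter sequences were matched for 31 of the 35 analysed genes, which have 41 windows in the table. Their median was 4 CG, against 14 CG over all 35116 promoter windows of the same length. GTTAAT was present on either strand in 13 of the 41 windows (31.7%), against 6.88% of all windows and 12.4% of the 14599 windows with at most 8 CG. TATAAA was present in 2 windows (4.88%), against 11.5% of all windows and 21.5% of the windows with at most 8 CG. The letters of TATAAA and GTTAAT can overlap by 1 base at most. Another motif, CAAAGTCCA, was present in 2 of the 41 windows and 0.384% of all windows. The 11 genes with GTTAAT were both bright and dim. F2, FGA, PROC, C5, FGB and CFI exceeded the limit, while PLG, C4BPA, C1R, F13B and MBL2 did not. Ribosomal proteins, with 22 of 24 genes matched, had a median of 22 CG and GTTAAT in 0 of 31 windows. The motif was not particular to coagulation and complement genes. It was present in 4 of 16 windows (25%) of conjugating enzymes. Olfactory receptor genes, 78.9% of them matched, had a median of 1 CG and GTTAAT in 59 of 293 windows (20.1%). The matched genes of the array had a median of 22 CG and GTTAAT in 5.44% of windows. Over all genes on the array 79.9% could be matched, too few to compare promoters between bright and dim genes as a whole. These matches describe letters in a window and not bound sites.

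The transcription factors that drive the hepatocyte programme lay mostly above the middle of the ranking, with a median percentile of 74.1. Of 22 analysed factors and receptors, 15 (68.2%) exceeded the limit, against 40.7% of all genes. Of these, 4 lay in the top 10%. CEBPB had 2947 units, the secretory pathway factor XBP1 1454, CEBPA 858 and the bile acid responsive repressor NR0B2 481 units. The fatty acid receptor PPARA had 150, the bile acid receptor NR1H4 134, FOXA2 128 and FOXA1 112 units. The drug-sensing receptors NR1I3 and NR1I2 had 22 and 17 units. HNF4G had 7 units, and NR5A2 and CREB3L3 had 4 units each.

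Genes of the metabolic and transport functions of adult liver were spread over the ranking. Of 102 analysed members of the 5 lists, 41 (40.2%) exceeded the limit, which is close to the 40.7% of all genes. Their median percentile was 49.6, and none lay in the top percent. As a whole these lists lay in the middle of the array, with bright single members.

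Among P450 and other oxidising enzymes, 14 of 34 (41.2%) exceeded the limit, close to the 40.7% of all genes. ADH5, a formaldehyde dehydrogenase that most tissues make, had 1418 units and its second probe 115 units. CYP1A1, an inducible P450, had 780 and 116 units on its probes. The P450 electron donor POR had 590, the carboxylesterase CES1 476, CYP2B6 258 and ADH4 215 units. The chief adult drug-oxidising enzymes were dim, with CYP3A4 at 4, CYP2E1 at 6, CYP1A2 at 8, CYP2C19 at 10, CYP2C8 at 20 and CYP2D6 at 38 units. The second CYP3A4 probe had 1 unit. CYP7A1, the rate-limiting enzyme of bile acid synthesis, had 9 units. The alcohol dehydrogenases ADH1B and ADH1C, which are closely similar in sequence, had 2 units each, CYP1B1 and CYP4F2 had 3 units each, and CYP39A1 had no value.

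Of 16 conjugating enzymes 6 (37.5%) exceeded the limit, close to the 40.7% of all genes. The sulfotransferase SULT1A1 had 1955 units, the glucuronosyltransferase UGT2B7 418, GSTA4 215, SULT2A1 181 and GSTZ1 115 units. SULT1A1 and UGT2B7 belong to families of near-identical genes, so their signal is uncertain. UGT1A1, which conjugates bilirubin, had 3 units, the nicotinamide methyltransferase NNMT 3 and UGT2B10 6 units. GSTP1, a transferase that hepatocytes make little of, had 24 and 16 units.

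Of 23 transporters and receptors 9 (39.1%) exceeded the limit, close to the share of all genes, and the median percentile was 50.7. The asialoglycoprotein receptor subunits ASGR2 and ASGR1 had 4079 and 543 units, the lipoprotein receptor SCARB1 2980, the transferrin receptor TFRC 2723 and the copper pump ATP7B 220 units. The other members above the limit were ABCG5 at 80, ABCG2 at 72, ABCB4 at 54 and ABCG8 at 53 units. Among members below it, the bile salt uptake carrier SLC10A1 had 5, the export pump ABCB11 2, SLCO1B1 9, SLCO1B3 4, SLC22A7 5, ABCB1 4 and ABCC2 10 units. SLC38A4 had no value. The liver glucose carrier SLC2A2 had 13 units, while the widely used carrier SLC2A1 had 14015 units.

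In the urea cycle and amino acid catabolism 11 of 20 genes (55%) exceeded the limit, against 40.7% of all genes. Glutamine synthetase (GLUL) had 968, ASL 443, HGD 417, CBS 414 and ASS1 335 units. CPS1, the entry enzyme of the urea cycle, had 236 units. Of the later steps, ASS1 and ASL were above the limit, while ornithine transcarbamylase (OTC) had 2 and arginase (ARG1) 7 units. The tryptophan-degrading TDO2 had 2 units. The tyrosine aminotransferase TAT had 18 units. In the list of gluconeogenesis and liver glucose enzymes 1 of 9 genes exceeded the limit, the glycogen phosphorylase PYGL at 166 units. G6PC1 had 44, PCK2 31, PCK1 29, the liver pyruvate kinase PKLR 28, FBP1 13, PC 5 and the liver glycogen synthase GYS2 3 units.

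A list drawn up as isoenzymes used outside adult liver was brighter, with 13 of 16 above the limit and a median percentile of 86.4. The list name does not hold for every member. GAPDH is also counted among the reference genes here, TPI1 is used in all tissues, and SLC2A1 and IGF2BP2 are not isoenzymes. The level of the list is therefore no measure of a change from liver forms to other forms. ENO1 had 25300, the muscle-type aldolase ALDOA 15966, SLC2A1 14015, GAPDH 12173, LDHA 9954 and TPI1 4556 units. MAT2A, the methionine adenosyltransferase of growing cells, had 390 units, and the liver form MAT1A 47 units. PKM had 301 and 11 units and HK2 298 and 12 units on their probes. LDHB had 4, HK1 15 and IGF2BP2 16 units.

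Fetal liver and oncofetal genes were among the brightest lists. Of 20 analysed members 15 exceeded the limit and 11 lay in the top 10%, with a median percentile of 92.1. After AFP came the imprinted DLK1, a surface protein of hepatoblasts, at 4204 units, with 165 units on its second probe. The tumour-associated reductase AKR1B10 had 2263 and 2074 units on its probes. The fetal growth factor IGF2 had 1510 and 40 units. The progenitor and biliary genes KRT19, EPCAM and SOX9 had 1573, 1414 and 1091 units, and the second EPCAM probe had 785 units. The proteoglycan GPC3 had 890 and midkine (MDK) 859 units. The RNA-binding regulators TRIM71 and IGF2BP1, which most adult tissues lack, had 582 and 537 units.

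Some fetal genes were dim or near the limit. H19, the imprinted non-coding RNA transcribed beside IGF2, had 4 units on its probe. SALL4 had 10 and 7 units and GOLM1 19 units, and the progenitor antigen PROM1 had no value. LIN28B, with 42 and 20 units, was just below the limit, and IGF2BP3, with 53 units, was above it. Each of H19, GOLM1 and IGF2BP3 had 1 probe.

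Tumour-related lists fell apart by kind. Proliferation genes had 21 of 26 above the limit and 15 in the top 10%, with a median percentile of 92.7. PCNA, the sliding clamp of replication, had 2550 units, the nucleotide reductase chains RRM2 and RRM1 2528 and 1457 units, MCM2 2405 and cyclin CCNB1 1424 units. The second RRM2 probe had 47 units and the second CCNB1 probe 578 units. MKI67, the common proliferation marker, had 43 units on 1 probe, just below the limit. The dimmest were PLK1 at 12, the telomerase gene TERT at 17, and BUB1 and MCM7 at 34 units each.

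Among 15 beta-catenin components and targets 10 exceeded the limit. Cyclin CCND1 had 3083 units, the secreted Wnt inhibitor NOTUM 3059 and 2373 units on its probes, the transcription factor SP5 2535, the Wnt inhibitor DKK1 877 and AXIN1 561 units. Further targets were TBX3 with 339 units, AXIN2 with 75 and LGR5 with 20 units. The dimmest were APC with 9 and RNF43 with 14 units. CTNNB1, which encodes beta-catenin itself, had 40 units.

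Cell cycle inhibitors and apoptosis regulators exceeded the limit in 11 of 13 cases. MDM2 had 2798, CDKN1A 1924, GADD45A 1369, BAX 863 and BBC3 562 units. CDKN2A, often lost in tumours, had 56, FAS 14 and RB1 10 units. TP53I3 had 56 and 40 units on its probes.

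Cancer-testis antigens, which many tumours switch on, were dim. Of 20 analysed members 1 exceeded the limit, MAGEA4 at 55 units, and the list median was 4 units. The median percentile was 18.9, and 39.7 with the scanner's background column subtracted in place of the blank mean. MAGEA9 and MAGEA12 had 30 units each, MAGEC1 and MAGEC2 22 units each, PRAME 17 and MAGEA3 13 units. DDX43 had 1, MAGEA1 2, and ACTL8 and PAGE1 3 units each, and MAGEB1, GAGE1 and BRDT had no value. The MAGEA genes are similar in sequence to each other.

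Several epithelial genes were bright. KRT18, a keratin of simple epithelia, had 9959 units. Of 18 simple epithelial and biliary genes 10 (55.6%) exceeded the limit, against 40.7% of all genes. SPP1, a secreted phosphoprotein of bile duct cells and many tumours, had 2768, KRT19 1573, TJP1 290 and CLDN3 184 units. CDH1 had 84 and CDH2 17 units. The biliary keratin KRT7 had 43 units, and AQP1 10, CLDN14 13 and CLDN2 5 units.

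Genes of other tissues and cells were below the limit in most cases, with differences between the lists. Of 138 analysed members of 13 lists, 29 (21.0%) exceeded the limit, against 40.7% of all genes, and 5 lay in the top 10%. Their median percentile was 33.2, and 14 of the 138 had no value, as did 1405 of all 17559 genes. The share was not low in every list: stratified epidermis had 6 of 12 members above the limit (50%) and a median percentile of 50.7, erythroid cells had 37.5% and intestine 36.4%. Bright members of the 13 lists are given here, and their part in the sample was not tested.

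The 5 in the top 10% were SFN, TUBB3, VIL1, ACTA2 and RGS5. SFN, a 14-3-3 protein of epithelial cells, had 1672 units. The keratins of the stratified epidermis list were led by KRT14 at 270 units, followed by KRT10 at 52, KRT4 at 51 and KRT5 at 46 units. KRT6A had 16, KRT1 9 and KRT13 7 units. The list name does not hold for KRT4 and KRT13, which are keratins of other stratified epithelia. TP63 had 5 units, and FLG had no value. TUBB3, a tubulin of neurons and of many tumours, had 1351 units on one probe and 11 on the other, while NEFM had 55, VGF 32, SYT1 and GAP43 4 each and STMN2 3 units. SNAP25 had no value. VIL1, the microvillus protein villin, had 924 units, and it is known in bile canaliculi as well as in the intestine. ACTA2, the smooth muscle actin, had 530 units and the pericyte gene RGS5 463 units, and the collagen genes that define fibroblasts were near the floor. DCN had 79 units, PDGFRB 22, FAP 15 and PDGFRA 3 units. COL1A1 had 2 and COL3A1 4 units, COL1A2, LUM, THY1 and LRAT had no value, and VIM, the filament of mesenchymal cells, had 8 units.

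Markers of blood and vessel cells ranged from no value to 281 units. PTPRC, the pan-leukocyte phosphatase, and CD4 had 2 units, ITGAM 3 units, and CD8A and MS4A1 no value. The immune list had 4 of 14 members (28.6%) above the limit, against 40.7% of all genes. They were CD68 at 281, CD79A at 279, LYZ at 226 and MARCO at 53 units, and CD3D had 37 units. CD68 is a lysosomal protein and is not limited to macrophages. Among 11 endothelial genes ENG exceeded the limit at 76 units, while KDR had 35, VWF 9, CDH5 5 and FLT1 3 units. In the erythroid list 3 of 8 genes (37.5%) exceeded the limit, close to the share of all genes. EPB42 had 74, the embryonic globins HBE1 and HBZ 72 and 67, HBG1 25 and AHSP 2 units, and the second HBE1 probe had 4 units.

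Muscle genes had 3 of 14 members above the limit. ACTA1 had 224 and 201 units on its probes, CKM 72, DES 65, TNNT2 30 and MB 26 units, whereas MYOD1 had 2, TTN 3, and MYOG and MYH2 7 units each. The actin genes are nearly identical in their coding parts, and ACTB and ACTG1 were among the brightest genes here. In the intestinal list ALPI had 202, CDX1 57 and FABP2 53 units, against 1 unit for MUC2 and 2 for LCT. In the pancreas list CTRB1 had 72 units, INS 5 and CPA1 2 units, and GCG no value. SFTPB led the lung list at 74 units, with AGER at 1 unit, and CRX led the retina list at 54 units, with RPE65 at 2 units. In the kidney list PAX8 had the highest value, 34 units, and in the germ line list DAZL, 22 units. No member of these 2 lists exceeded the limit, and 5 of 11 germ line genes had no value.

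**Figure D4:**
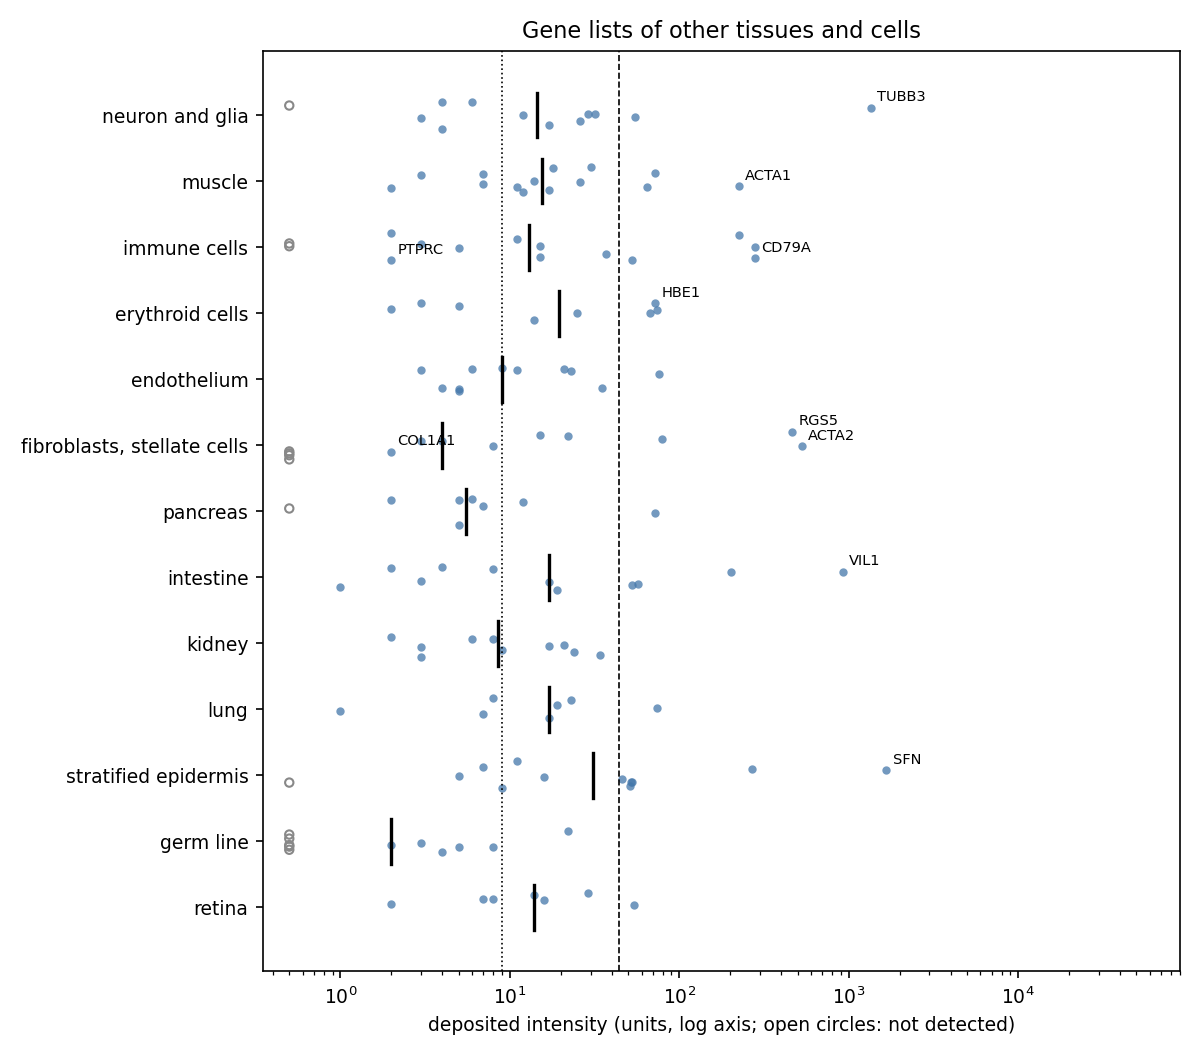
Deposited intensity (units, log axis) of each analysed member of 13 lists of other tissues and cells, drawn as in the plot of liver lists. Most genes lie left of the dashed limit at 44 units; SFN, TUBB3, VIL1, ACTA2 and RGS5 lie farthest to its right.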

How the data were processed

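Per the labels' protocols, amplified RNA carried the dye Cy5, and 1 sample was read per array. The deposited intensities are whole numbers. Set against the scanner file, they equal the spot median minus the mean of the blank spots (5% trimmed at each end), divided by 1.26, within 0.51 units. Probes not above the blank mean by 2 SDs (5 further probes were marked by the scanner) have no deposited value. Per the file headers, scanner intensities join 3 gains. The scanner software is not given in the sources used here.

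Of 24460 probes, 17238 had a current RefSeq symbol (GRCh38.p14), 2899 were renamed through a unique synonym, 99 kept an unmatched symbol and 4224 were unnamed. The brightest probe stood for a gene. Percentiles count genes with a lower value, with ties at their mean rank and genes with no value tied at the bottom. Promoters and their coordinates are those of RefSeq.

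The 32 lists hold 579 genes, of which 510 were analysed and 69 are not analysed here. Members and lists were chosen with earlier results of these data known. Named were the 25 brightest genes, the marker genes, list members (at least the 5 brightest, 3 dimmest and those with no value), the 5 brightest olfactory receptor or keratin-associated genes and the 5 widest probe gaps. No statistical test was run, since there is 1 array. The 2 value columns of the other arrays were not used. The ranking was tested on simulated data. Values were computed with pandas 2.3.3 and numpy 2.4.6 under Python 3.11.15, and plots drawn by matplotlib 3.10.9.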

Additional observations from a re-analysis of the deposited data

Results flagged for a closer look

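The probes with no gene name were not part of the ranking of genes and held bright signals. The brightest of them had 46203 units, where the brightest negative control spot had 9.06 units. Of 4224 unnamed probes 3770 had a value, with a median of 11 units, and 84 of the 245 probes in the top percent of all probes were unnamed.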

How the results depend on the processing

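The counts above the limit moved most with the limit itself. With the 95th percentile of keratin-associated protein genes (275 units) in place of the olfactory receptor genes, 2548 genes exceeded it, with 31 members of the secreted protein lists, 16 of the metabolism and transport lists and 7 of the other tissue lists, against 7141, 56, 41 and 29. With the brightest negative control spot as the limit, a setting chosen after seeing the data, 11862 genes, 70 metabolism and transport members and 69 other tissue members exceeded it. With the scanner's background column, which was subtracted in place of the blank mean, the percentiles of ALB, AFP and APOA1 were 99.54, 99.76 and 90.99. ALB was at 99.83 after division by the block median. With ranks taken within probes of the same ID prefix, also chosen after seeing the data, ALB and AFP were at 99.9 and 99.65. The limit on those ranks was exceeded by 6651 genes, with 52 members of the secreted protein lists, 38 of the metabolism and transport lists and 25 of the other tissue lists. The median percentiles of the lists depended on the setting: the background column moved 16 of 32 by more than 5 points, ID prefix ranks 10 and the mean of the probes 1. With the background column the median fell to 54.64 for beta-catenin genes, against 79.06, and was 39.72 for cancer-testis antigens, against 18.94. It fell to 64.9 for plasma carriers, against 80.59, and rose to 66.71 for gluconeogenesis genes, against 51.8, so the order of these lists was reversed. Fetal genes were at 85.42, against 92.1. Apolipoproteins and coagulation genes moved little, to 81.44 and 81.58, against 83.65 and 79.51. Settings that change only the limit cannot move these medians. The mean of a gene's probes, unrounded signals, no background subtraction, detection at 5 SDs and the 90th percentile of olfactory receptor genes moved none of the marker percentiles beyond the spread of the positive control spots and no count by more than 1.5 times. Below 12.1 units, the highest value among blank, negative control and empty spots, the order of genes is not resolved. No paired analysis was possible because each group has 1 array and no test was run.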
